A study of Homo sapiens with 6 samples.

Results

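Desmosomes are junctions that join neighbouring epithelial cells and anchor their keratin filaments. The desmosome components described here were 10 genes, chosen by the class of protein they encode, with earlier results of these data known. They comprised the desmosomal cadherins DSG2, DSG3, DSC2 and DSC3, the plakin DSP, the armadillo proteins JUP, PKP1, PKP2 and PKP3, and the membrane protein PERP. All 10 were found among the 67140 gene identifiers of the count table, and all 10 were among the 19254 genes that passed the filter on low counts.

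The study asked how loss of the long noncoding RNA AC007128.1 alters gene expression in esophageal squamous cell carcinoma. KYSE150 is a human cell line established from such a carcinoma. Per the study's methods, lentivirus carried a short hairpin RNA into the cells and puromycin selected the stable lines. Poly-A RNA of 3 samples with a control hairpin (shCtrl) and 3 samples with a hairpin against AC007128.1 (shAC007128.1) was sequenced. All 6 samples were KYSE150 cells grown in RPMI medium with fetal bovine serum and carried 1 hairpin each, so a single hairpin stood for the knockdown. In the labels, the treatment field reads shAC007128.1 in all 6 samples, and the groups were therefore taken from the titles and descriptions. The labels and the methods name different RNA extraction kits. Nothing in the labels says that the 3 samples of a group came from separate cultures or lines, so p-values measure only the spread between these samples, which may be technical.

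In a desmosome, the extracellular parts of desmogleins and desmocollins bind the cadherins of the next cell. Inside the cell, plakoglobin (JUP) and the plakophilins attach to the cadherin tails, and desmoplakin (DSP) links this plaque to keratin filaments. In stratified squamous epithelium, DSG3 and DSC3 are typical of the basal layers, DSG2 and DSC2 are found more widely in epithelia, and PERP is a tetraspan membrane protein of the desmosome and a target gene of p53 and p63.

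Total counts were between 55764405 and 78610457 per library. At these depths 3 counts equalled between 0.0373 and 0.0546 CPM (counts scaled to a common library size with TMM factors). This is the upper limit that a count of 0 allows if each count is a separate read. The library shAC007128.1 replicate 3 stood apart from the others of its group. Across 19156 genes, which are not independent replicates, its deviations from the group mean followed the GC content of the transcripts with a Spearman rho of -0.42. The same rho was 0.30 and 0.25 in shAC007128.1 replicates 1 and 2 and between -0.03 and 0.01 in the shCtrl libraries. The deviations within a group cancel for each gene, so the values of its libraries depend on one another. Opposite signs are therefore no separate trend of replicates 1 and 2. Squamous markers were present in every library: the 8 of them (KRT5, KRT14, KRT6A, KRT17, TP63, SFN, CDH1 and KLF5) summed to 1839 to 1871 CPM in shCtrl and to 2648 to 3394 CPM in shAC007128.1. Of the 8, 5 passed an adjusted p of 0.05 in edgeR, all higher in shAC007128.1. KRT17, KLF5 and TP63 did not pass, and TP63 had a negative log2 fold change (-0.27, edgeR adjusted p = 0.406). Fibroblast markers summed to 15.3 to 16.2 CPM in shCtrl and to 20.9 to 23.9 CPM in shAC007128.1 over 7 genes, most of it COL1A1. Of these, COL1A2, COL3A1, PDGFRA and DCN did not pass the filter on low counts. In the same order, endothelial markers summed to 2.12 to 3.11 and 0.302 to 2.02 CPM over 3 genes. Leukocyte markers summed to 59.1 to 68.0 and 14.5 to 23.8 CPM over 3 genes, most of it CD68. The endothelial gene CDH5 and the leukocyte gene PTPRC did not pass the filter on low counts. No marker was at 0 in all 6 libraries. All 6 samples were cultures of the KYSE150 line, so these sums describe marker genes in that line and not shares of other cell types. The part of these markers in the results that follow was not tested. In bulk samples, fewer cells that express a gene and less RNA per cell cannot be told apart.

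The targeted gene, AC007128.1 (ENSG00000229970, hg38 chromosome 7, 8262264 to 8344516, plus strand), was identified by the 19 bases of the hairpin's sense arm. They matched the transcripts of this gene alone in GENCODE v44, and are shown here because they define what the hairpin was designed against.
AC007128.1 hairpin target: ccacaagtcctggcacatt

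AC007128.1 had 69, 33 and 53 counts in shCtrl replicates 1, 2 and 3 and 18, 37 and 15 counts in shAC007128.1 replicates 1, 2 and 3. The groups overlapped, since shAC007128.1 replicate 2 lay above shCtrl replicate 2. The log2 fold change was -0.77 (SE 0.51, edgeR adjusted p = 0.271), and an exact two-sided permutation test of CPM gave p = 0.2, where 3 samples against 3 allow no p below 0.1. Without shAC007128.1 replicate 2 the value was -1.29 (adjusted p = 0.0959), and over all libraries left out in turn it ran from -1.29 to -0.51, the latter without shCtrl replicate 1. These counts therefore neither showed a lower level past the threshold nor gave a firm check of the labels.

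The cadherin genes stand side by side on chromosome 18. From the start of DSC3 to the end of DSG2 the cluster spanned 560 kb of hg38 and held 7 protein-coding genes, in the order DSC3, DSC2, DSC1, DSG1, DSG4, DSG3 and DSG2. DSC1, DSG1 and DSG4 did not pass the filter on low counts. DSG4 had a count of 0 in every library, which allows a level of up to 0.0546 CPM in the shallowest of them if each count is a separate read. DSG1 had 5 counts in shCtrl replicate 1 and 0 in the others. DSC1 had between 0 and 25 counts. DSG3 (31447741 to 31478702, plus strand, 16 exons) ended 19.5 kb before the start of DSG2 (31498177 to 31549008, plus strand, 15 exons). DSC3 (30989365 to 31042815, minus strand, 16 exons) and DSC2 (31058840 to 31102522, minus strand, 17 exons) lay 16.0 kb apart.

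The stretches around the start sites of DSG3, DSG2, DSC2 and PERP are printed because DSG3 and PERP had the largest differences among the 10 genes, and because DSG3 and DSG2, like DSC2 and DSC3, are neighbouring paralogs with unlike values. Each runs 5′ to 3′ on the strand of its gene, from 250 bases before the start site to 50 bases after it, and comes from RefSeq on GRCh38.p14. Capitals mark matches, on either strand, to 6 motifs: the GC box GGGCGG, the AP-1 site TGANTCA, the E-box CAGGTG bound by SNAI and ZEB factors, the NF-Y site CCAAT, the core promoter motif TATAAA and the Grainyhead site AACCGGTT. Adjacent capitals in PERP belong to overlapping GC boxes. The regions are chr18:31447491-31447790 (plus) for DSG3, chr18:31497927-31498226 (plus) for DSG2, chr18:31102372-31102671 (minus, the first of 2 windows) for DSC2 and chr6:138107370-138107669 (minus) for PERP.
DSG3: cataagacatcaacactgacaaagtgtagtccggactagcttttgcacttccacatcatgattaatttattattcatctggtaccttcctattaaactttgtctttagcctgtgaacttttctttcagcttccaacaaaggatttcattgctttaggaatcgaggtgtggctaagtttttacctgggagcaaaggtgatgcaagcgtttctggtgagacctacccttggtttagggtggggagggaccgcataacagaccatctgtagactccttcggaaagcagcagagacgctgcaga
DSG2: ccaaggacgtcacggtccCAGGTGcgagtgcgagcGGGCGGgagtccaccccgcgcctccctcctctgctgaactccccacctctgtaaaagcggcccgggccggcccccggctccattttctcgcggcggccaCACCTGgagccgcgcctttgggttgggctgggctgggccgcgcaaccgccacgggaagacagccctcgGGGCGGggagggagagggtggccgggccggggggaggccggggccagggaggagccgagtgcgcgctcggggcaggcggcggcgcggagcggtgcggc
DSC2: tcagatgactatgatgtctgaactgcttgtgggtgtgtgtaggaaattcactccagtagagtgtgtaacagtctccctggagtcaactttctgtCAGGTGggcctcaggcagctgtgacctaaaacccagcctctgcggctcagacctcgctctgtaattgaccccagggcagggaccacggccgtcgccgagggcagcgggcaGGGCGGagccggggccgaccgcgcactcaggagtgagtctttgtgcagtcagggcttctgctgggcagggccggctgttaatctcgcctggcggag
PERP: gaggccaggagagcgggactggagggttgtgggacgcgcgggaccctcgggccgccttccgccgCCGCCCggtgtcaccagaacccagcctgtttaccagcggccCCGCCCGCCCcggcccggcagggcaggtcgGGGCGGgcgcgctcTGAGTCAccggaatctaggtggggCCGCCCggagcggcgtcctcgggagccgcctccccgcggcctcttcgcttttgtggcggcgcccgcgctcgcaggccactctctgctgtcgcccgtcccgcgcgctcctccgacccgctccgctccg

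Of the 10 genes, 8 had such a window, and PKP2 and PKP3 were not matched. The DSG3 window held no match to any of the 6 motifs, and 18.8% of all windows in the table had a lower GC content. The DSG2 window, by contrast, held 76.7% GC, 2 GC boxes and 2 CAGGTG matches in DSG2. The DSC2 window held 60.7% GC, 1 GC box and 1 CAGGTG match, and the PERP window held 77.0% GC, 5 GC boxes and 1 AP-1 match. PERP was the only gene of the 8 with an AP-1 match in its first window, 6 of the 8 had a GC box, 3 had CAGGTG, 2 had CCAAT, and none had TATAAA or the Grainyhead letters. Over all 35116 windows of the table the median GC content was 58.7%, and 45.0% held a GC box, 7.71% an AP-1 match, 20.6% CAGGTG, 34.6% CCAAT, 11.5% TATAAA and 0.134% AACCGGTT. A match describes letters in the window and not a bound site.

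Among the desmogleins, DSG3, the cadherin of basal squamous cells and the main autoantigen of pemphigus vulgaris, fell in shAC007128.1. It measured 205.5, 206.6 and 196.1 CPM in shCtrl replicates 1, 2 and 3 and 93.0, 87.6 and 105.5 CPM in shAC007128.1 replicates 1, 2 and 3. All shAC007128.1 libraries lay below all shCtrl libraries. The mean was 202.7 ± 5.76 CPM in shCtrl and 95.3 ± 9.19 CPM in shAC007128.1 (SD, n = 3 each), which was 47.0% of the control level. The log2 fold change of DSG3 was -1.09 (SE 0.09, 95% interval -1.29 to -0.89, edgeR adjusted p = 0.000122), and its interval reached inside the fold limit of 2.

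DSG2, the desmoglein of simple as well as stratified epithelia, was listed at 442.2, 441.0 and 431.7 CPM in shCtrl and at 482.8, 490.9 and 598.8 CPM in shAC007128.1. The groups did not overlap, and shAC007128.1 replicate 3 lay well above the other libraries of its group. The log2 fold change of DSG2 was 0.26 (SE 0.09, edgeR adjusted p = 0.0569) and did not pass the threshold. Without shAC007128.1 replicate 3 the value was 0.14 with an adjusted p of 0.0129, and without shAC007128.1 replicate 1 it was 0.31 with an adjusted p of 0.0494.

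DSC2, a desmocollin expressed widely in epithelia, rose. Its level was 36.6, 42.7 and 34.8 CPM in shCtrl and 67.4, 64.9 and 76.2 CPM in shAC007128.1, with all shAC007128.1 libraries above all shCtrl libraries. For DSC2 the log2 fold change was 0.87 (SE 0.11, 95% interval 0.61 to 1.13, edgeR adjusted p = 0.000846). DSC3, the desmocollin of basal squamous cells, was at 103.0, 105.6 and 105.8 CPM in shCtrl and at 97.9, 105.6 and 118.9 CPM in shAC007128.1. The shCtrl values all lay inside the range of the shAC007128.1 libraries, and the log2 fold change of DSC3 was 0.04 (95% interval -0.17 to 0.24, edgeR adjusted p = 0.771). The sign of the DSC3 difference turned without shAC007128.1 replicate 3 (-0.05, adjusted p = 0.491).

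PERP (hg38 chromosome 6, 138088505 to 138107419, minus strand, 3 exons), which is needed for stable desmosomes in stratified epithelia, rose most among the 10 genes. It had 162.4, 164.0 and 164.3 CPM in shCtrl and 461.5, 463.5 and 497.9 CPM in shAC007128.1. The lowest shAC007128.1 library lay far above the highest shCtrl library, and the spread within each group was small beside this gap. The mean was 163.6 ± 1.02 CPM in shCtrl and 474.3 ± 20.5 CPM in shAC007128.1 (SD, n = 3 each), a 2.90-fold higher level. The log2 fold change of PERP was 1.54 (SE 0.06, 95% interval 1.39 to 1.68, edgeR adjusted p = 1.6e-05).

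Of the plaque proteins, desmoplakin (DSP, hg38 chromosome 6, 7541338 to 7586714, plus strand, 24 exons), the link to keratin filaments, was at 514.2, 524.1 and 500.9 CPM in shCtrl and at 593.4, 597.7 and 618.5 CPM in shAC007128.1. The groups did not overlap. DSP rose by 0.23 on the log2 scale (SE 0.05, edgeR adjusted p = 0.0117). It no longer passed without shCtrl replicate 1 (0.23, adjusted p = 0.0546) or without shCtrl replicate 3 (0.21, adjusted p = 0.0655).

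JUP, or plakoglobin (hg38 chromosome 17, 41754604 to 41786931, minus strand, 14 exons), binds the tails of both desmosomal and classical cadherins. It measured 252.4, 316.7 and 250.2 CPM in shCtrl and 450.4, 347.5 and 289.2 CPM in shAC007128.1. The lowest shAC007128.1 library, replicate 3, lay below shCtrl replicate 2, so the groups overlapped. For JUP the log2 fold change was 0.41 (SE 0.17, edgeR adjusted p = 0.0957) and did not pass the threshold, whereas without shAC007128.1 replicate 3 it was 0.54 with an adjusted p of 0.0320. Without shAC007128.1 replicate 1 it was 0.22 with an adjusted p of 0.251.

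The plakophilins gather desmoplakin and cadherins at the plaque. PKP3 (hg38 chromosome 11, 392614 to 404908, plus strand, 13 exons), found in nearly all desmosomes of epithelia, was at 121.4, 111.5 and 118.1 CPM in shCtrl and at 167.5, 165.9 and 132.8 CPM in shAC007128.1. Its groups did not overlap, and shAC007128.1 replicate 3 was the lowest of its group. PKP3 rose by 0.41 on the log2 scale (SE 0.10, edgeR adjusted p = 0.0172). It no longer passed without shCtrl replicate 2 (0.37, adjusted p = 0.0728), shCtrl replicate 3 (0.41, adjusted p = 0.0571) or shAC007128.1 replicate 2 (0.36, adjusted p = 0.0552).

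PKP1 (hg38 chromosome 1, 201283452 to 201332993, plus strand, 15 exons), the plakophilin of differentiating squamous layers, was at 57.5, 54.4 and 87.8 CPM in shCtrl and at 87.9, 79.3 and 83.8 CPM in shAC007128.1. The shCtrl replicate 3 library reached the level of the shAC007128.1 libraries, and the log2 fold change of PKP1 was 0.33 (SE 0.18, edgeR adjusted p = 0.190). Without shCtrl replicate 3 it was 0.58 with an adjusted p of 0.00765, and without shCtrl replicate 2 it was 0.20 with an adjusted p of 0.461. PKP2 (hg38 chromosome 12, 32790745 to 32896798, minus strand, 14 exons), the plakophilin shared with heart muscle, was at 198.7, 190.5 and 186.6 CPM in shCtrl and at 183.6, 174.3 and 197.9 CPM in shAC007128.1, which overlapped. For PKP2 it was -0.05 (95% interval -0.22 to 0.12, edgeR adjusted p = 0.614).

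**Figure D1:**
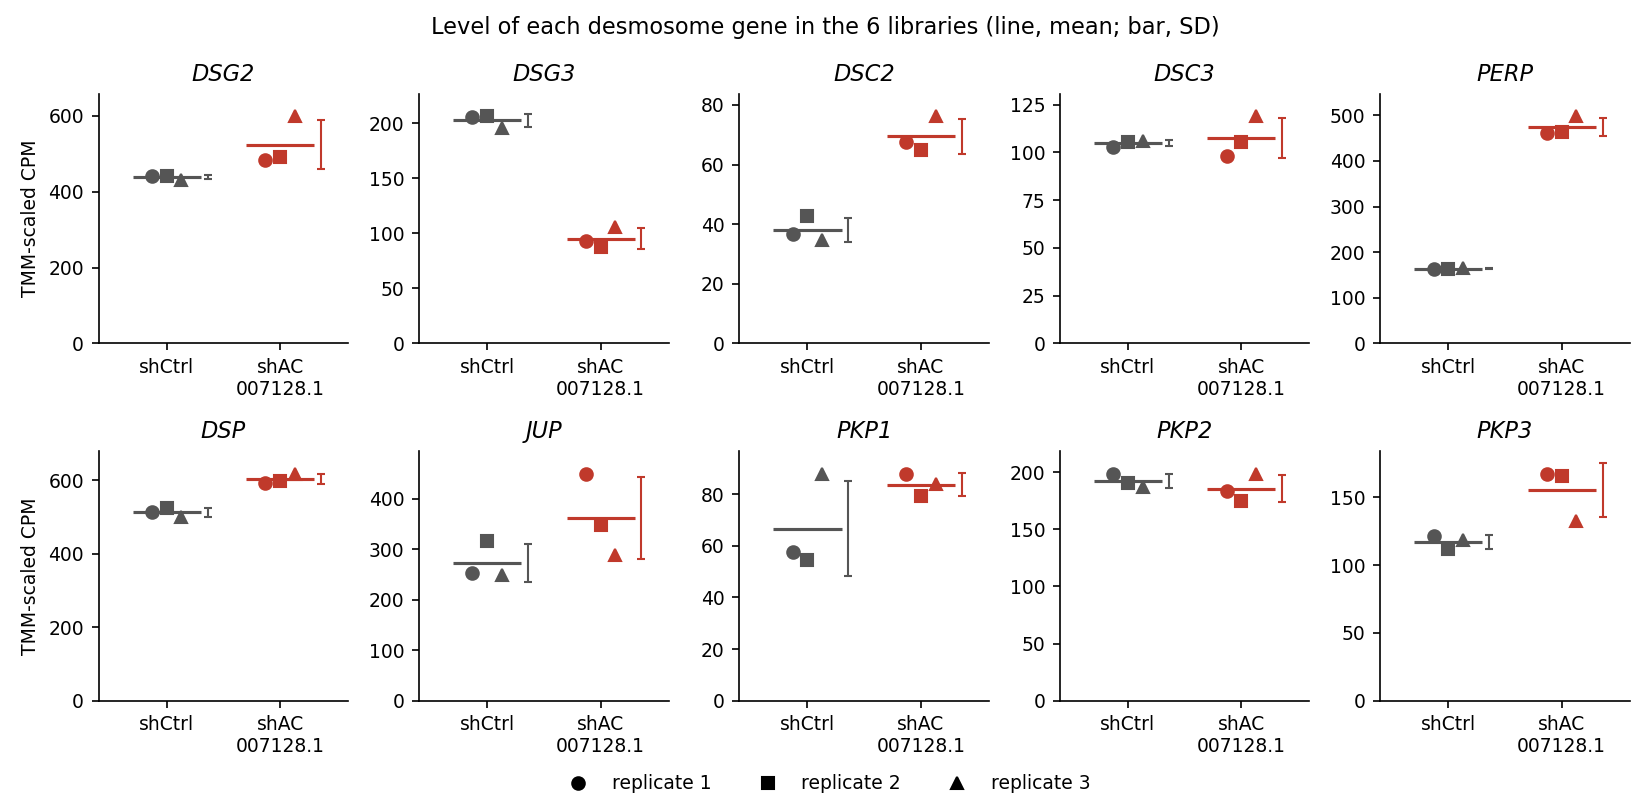
Levels of the 10 desmosome genes in TMM-scaled CPM (vertical axes from 0, each with its own range) in the 3 shCtrl (grey) and 3 shAC007128.1 (red) libraries, with marker shapes for replicate numbers, lines for means and bars for SD. DSG3 lies lower in every shAC007128.1 library (87.6 to 105.5 against 196.1 to 206.6 CPM), PERP lies higher (461.5 to 497.9 against 162.4 to 164.3 CPM), and DSC3 and PKP2 overlap.

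At an adjusted p of at most 0.05 and a fold change of at least 2, PERP was called higher and DSG3 lower. This was 2 of the 10 genes, where 15.7% of all genes tested were called, 5.57% higher and 10.1% lower. With no limit on fold change 5 of the 10 passed, 4 higher (PERP, DSC2, PKP3 and DSP) and 1 lower (DSG3), where 40.8% of all genes passed, 21.0% higher and 19.8% lower. The groups did not overlap for 6 of the 10 genes, where they did not for 55.2% of all genes. With no fold limit the share higher lay above that of all genes and the share lower below it, and the other shares lay nearer. The 10 genes were few and were not tested as a group, so these shares were no result about desmosome genes as a group. The median log2 fold change was 0.29 over the 10 genes and -0.02 over all genes.

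The position of shAC007128.1 replicate 3 went in part with the GC content of the transcripts among the desmosome genes too. Of the 10 genes, 7 were highest within their group in that library, and JUP and PKP3, the genes with the highest GC content (61.5% and 66.7%), were lowest in it. The transcripts of DSC2, DSC3, PERP, DSG2 and DSG3 held between 38.9% and 42.5% GC, below the median of 48.3% over all genes, and lay 0.07 to 0.20 above the group mean in that library on the log2 scale. JUP lay 0.30 below the group mean and PKP3 0.22 below it, on the same scale. PKP1, also of high GC content (56.4%), lay only 0.003 above the mean. DSP (47.7%) and PKP2 (46.5%), near the median GC content, lay 0.04 and 0.10 above it. How many of all genes were highest in that library was not counted.

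**Figure D2:**
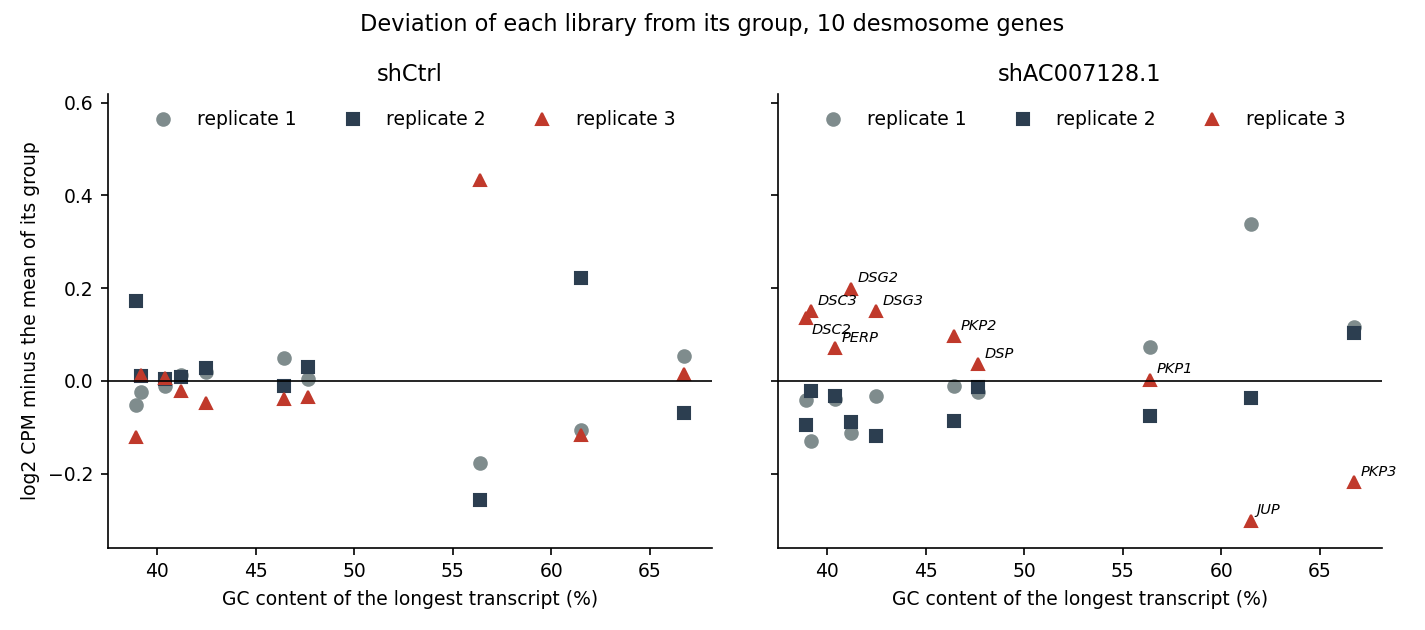
Deviation of each library from the mean log2 CPM of its group (vertical axis, log2 units) against the GC content of the longest transcript in percent, for the 10 desmosome genes in shCtrl (left) and shAC007128.1 (right), with marker shapes for replicates and gene names beside shAC007128.1 replicate 3. In that library the low-GC genes lie above 0 and JUP and PKP3, at 61.5% and 66.7% GC, lie below it. PKP1, at 56.4% GC, lies near 0.

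When the trend of level on GC content was taken out of each library, an alternative added after the data were seen, 7 of the 10 genes passed the adjusted p of 0.05, 5 higher and 2 lower, where 44.5% of all genes passed. DSG3 (-1.20) and PERP (1.37) kept their calls in edgeR with adjusted p of 1.43e-05 and 5.78e-06. DSC2 (0.66) and DSP (0.24) also still passed, with adjusted p of 0.000949 and 0.00251. PKP3 moved from 0.41 to 0.69 (adjusted p = 8.75e-05) and DSG2 from 0.26 to 0.11 (adjusted p = 0.0832), both by more than 1.5 times. JUP passed at 0.59 (adjusted p = 0.0102), and DSC3 turned to -0.17 and passed at an adjusted p of 0.0318, though not with the replicate block added to the same fit (-0.17, adjusted p = 0.0729). The correction takes out any trend on GC content, including one that the groups differ by.

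**Figure D3:**
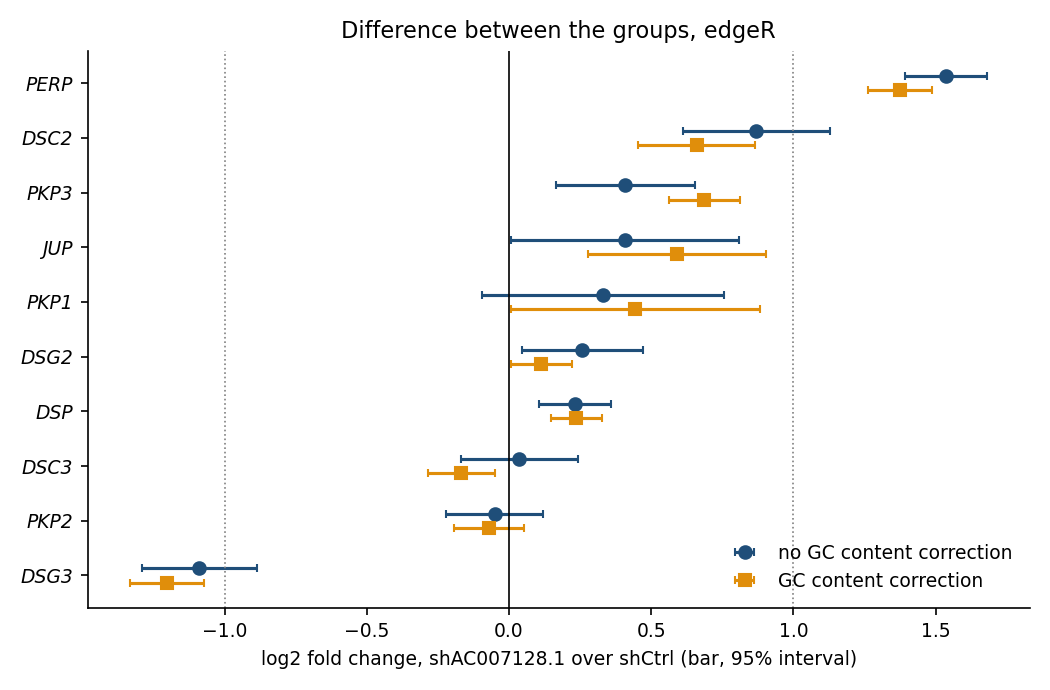
Log2 fold change of each desmosome gene, shAC007128.1 over shCtrl, with 95% intervals from edgeR without (blue circles) and with (orange squares) the GC content correction, and dotted lines at a fold change of 2 in either direction. PERP and DSG3 stay past 1 and -1 in both fits, whereas DSC3 lies at 0.04 without the correction and at -0.17 with it.

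Levels of different genes were compared per length, as TPM (transcript abundance scaled to a common sum) over the union of exons. In shCtrl the order from highest to lowest was JUP, DSG2, PERP, DSP, DSG3, PKP3, PKP2, DSC3, PKP1 and DSC2, from 175.8 ± 23.6 TPM for JUP to 9.68 ± 0.984 TPM for DSC2 (SD, n = 3). The neighbours PERP and DSP overlapped in this order, as did DSC3 and PKP1. In shAC007128.1 the order was PERP, JUP, DSG2, DSP, PKP3, PKP2, DSG3, DSC3, PKP1 and DSC2, from 355.4 ± 10.6 TPM for PERP to 17.5 ± 1.12 TPM for DSC2, and JUP overlapped DSG2, DSP overlapped PKP3, PKP2 overlapped DSG3, and DSC3 overlapped PKP1. By this length PERP thus stood at rank 3 in shCtrl and at rank 1 in shAC007128.1, and DSG3 at rank 5 and rank 7. These ranks hold for the exon union only. PKP2 has 10288 bases in the exon union and 4361 in its longest transcript, whereas PERP (4198) and DSG3 (5579) have the same length in both. Both ranks can therefore change with the length used, and the order with longest transcripts was not worked out.

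The 10 genes together summed to 926.7 ± 24.2 TPM in shCtrl and to 1242 ± 29.8 TPM in shAC007128.1 (SD, n = 3 each). Most of this difference was PERP alone, with a mean of 124.0 TPM in shCtrl and 355.4 TPM in shAC007128.1. The 4 cadherins together summed to 311.8, 318.5 and 316.2 TPM in shCtrl and to 268.0, 279.0 and 318.7 TPM in shAC007128.1. The cadherin sums overlapped, since shAC007128.1 replicate 3 lay at the shCtrl level.

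Within the cadherin pairs the shares of the paralogs differed between the groups. DSG3 made up 44.2%, 44.4% and 43.6% of the DSG2 and DSG3 transcripts in shCtrl and 24.7%, 23.3% and 23.1% in shAC007128.1, with no overlap. DSC2 made up 17.95%, 19.9% and 16.9% of the DSC2 and DSC3 transcripts in shCtrl and 29.8%, 27.5% and 28.3% in shAC007128.1, again with no overlap. DSC3 itself did not pass the test (log2 fold change 0.04), and DSC2 rose. Over all 4 cadherins, DSG2 made up 46.6% ± 0.345 in shCtrl and 60.1% ± 0.779 in shAC007128.1 (SD, n = 3 each).

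As log2 ratios within a library, in which library size cancels, DSG3 to DSG2 differed by -1.34 (SE 0.04) and DSC3 to DSC2 by -0.84 (SE 0.10). Each of these had an exact two-sided permutation p of 0.1, the smallest that 3 samples against 3 allow, and a Benjamini-Hochberg adjusted p of 0.133 over the 4 ratios compared, so neither could pass the threshold. The PKP2 to PKP3 ratio differed by -0.45 (SE 0.16, exact permutation p = 0.1, adjusted p = 0.133), and the PKP1 to PKP3 ratio differed by -0.04 (SE 0.24, exact permutation p = 0.9, adjusted p = 0.9). PKP1, PKP2 and PKP3 made up 17.7%, 31.1% and 51.3% of the plakophilin transcripts in shCtrl and 18.6%, 24.97% and 56.4% in shAC007128.1, as means. The PKP1 and PKP3 shares overlapped between the groups. The PKP2 share ran from 28.6% to 32.7% in shCtrl and from 23.1% to 28.4% in shAC007128.1, where replicate 3 was the highest. Shares depended on the length used: with the longest transcript in place of the exon union, PKP2 (45.1%) stood above PKP3 (42.5%) in shCtrl.

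**Figure D4:**
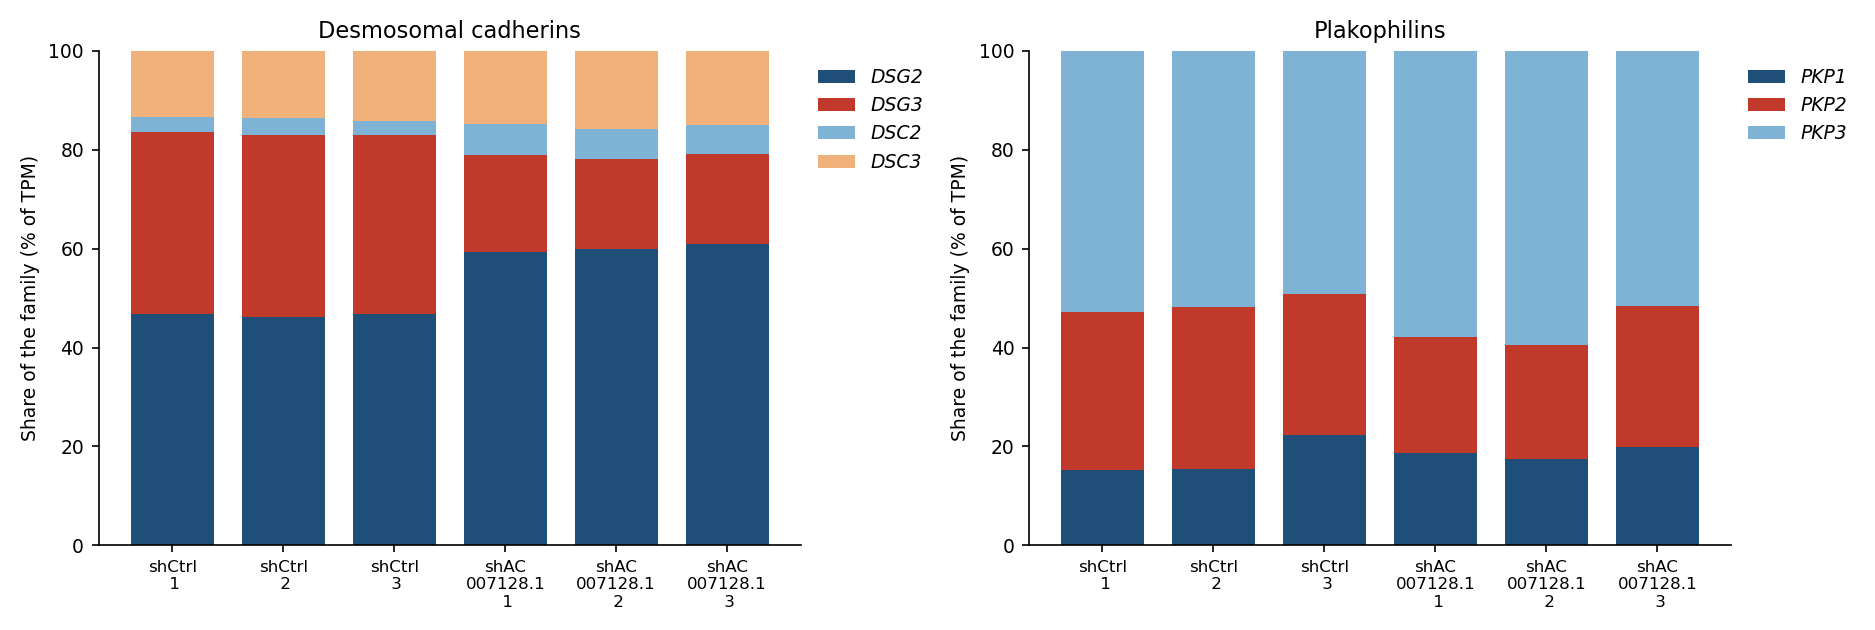
Share of each gene in the summed TPM of the 4 desmosomal cadherins (left) and of the 3 plakophilins (right), in percent, as stacked bars for each of the 6 libraries. The DSG3 share is 36.2% to 36.9% in the shCtrl libraries and 18.2% to 19.5% in the shAC007128.1 libraries, whereas the plakophilin shares differ less.

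Other genes of the desmosome and of the structures it connects with were read from fixed lists. At an adjusted p of at most 0.05, 21.0% of all genes tested rose and 19.8% fell, with a median of -0.02. No list was tested as a group. Of 9 other desmosomal and plakin genes, 6 were tested, 3 rose and 1 fell, with a median log2 fold change of 0.56. PKP4, an armadillo relative of the plakophilins, rose by 0.72, EVPL (envoplakin) by 0.97 and PNN (pinin) by 0.40, and PPL (periplakin) fell by 0.33 on the log2 scale (edgeR adjusted p = 0.000863, 0.0207, 0.00187 and 0.0237). DSG1, DSG4 and DSC1 were not tested.

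Keratins, the filaments that desmosomes anchor, had the highest median of these lists. Of 13 keratins 11 were tested, 9 rose and 1 fell, with a median log2 fold change of 1.22, where 21.0% of all genes rose and 19.8% fell. Past a fold change of 2 there were 7 and 1 keratins, where 5.57% and 10.1% of all genes passed. KRT14, a basal keratin, had a mean of 59.9 CPM in shCtrl and 291.0 CPM in shAC007128.1 and rose by 2.28, and KRT15, also basal, rose by 2.85. KRT6A, a keratin of activated squamous cells, rose by 2.46, and KRT8, a keratin of simple epithelia, rose by 1.85 (edgeR adjusted p between 1.73e-05 and 4.17e-05 for these 4 genes). KRT7, chosen after its values were seen as the keratin that fell, had a log2 fold change of -1.06 (adjusted p = 0.0218). Reads of near-identical keratins, such as KRT6A and KRT6B, could be split in the counting and their values are uncertain. KRT4 and KRT19 did not pass the filter on low counts.

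Among 12 genes of adherens junctions, which share JUP with desmosomes, 11 were tested, 3 rose and none fell, with a median of -0.04. Of all genes, 21.0% rose and 19.8% fell. CTNNB1 (beta-catenin) rose by 0.74, CTNNA1 (alpha-catenin) by 0.45 and CDH1 (E-cadherin) by 0.21 (edgeR adjusted p = 0.00011, 0.00103 and 0.0187), and CDH2 was not tested. All 9 genes of hemidesmosomes, which fix keratins to the basement membrane, were tested. Of these, 5 rose and 2 fell, with a median of 0.26, beside the same shares of 21.0% and 19.8% of all genes. COL17A1 rose by 0.64, ITGA6 by 0.50 and LAMA3 by 0.42 on the log2 scale (edgeR adjusted p = 0.00109, 0.00139 and 0.0012). Others that passed, named after their values were seen, were ITGB4 (0.34) and CD151 (0.26) among the higher and LAMB3 (-0.63) among the lower.

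Of 17 shedding, kinase and transcription genes linked to desmosomes, 16 were tested, 1 rose and 4 fell, with a median of -0.07. Over all genes 21.0% rose and 19.8% fell. EGFR, a receptor kinase that phosphorylates plaque proteins, had a mean of 1624 CPM in shCtrl and 623.9 CPM in shAC007128.1 and a log2 fold change of -1.38 (edgeR adjusted p = 1.6e-05). SNAI2, a repressor of epithelial genes, had a log2 fold change of -1.21, and ADAM17, a protease that sheds membrane proteins, one of -0.83 (adjusted p = 0.00014 and 0.000154). ZEB1, another repressor of epithelial genes, rose by 1.31 (adjusted p = 0.00114) at low mean levels of 2.6 CPM in shCtrl and 6.4 CPM in shAC007128.1. GRHL3, a Grainyhead factor chosen after its values were seen as the remaining gene that fell, had a log2 fold change of -0.67 (adjusted p = 0.0371). ZEB2 had a count of 0 in every library.

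**Figure D5:**
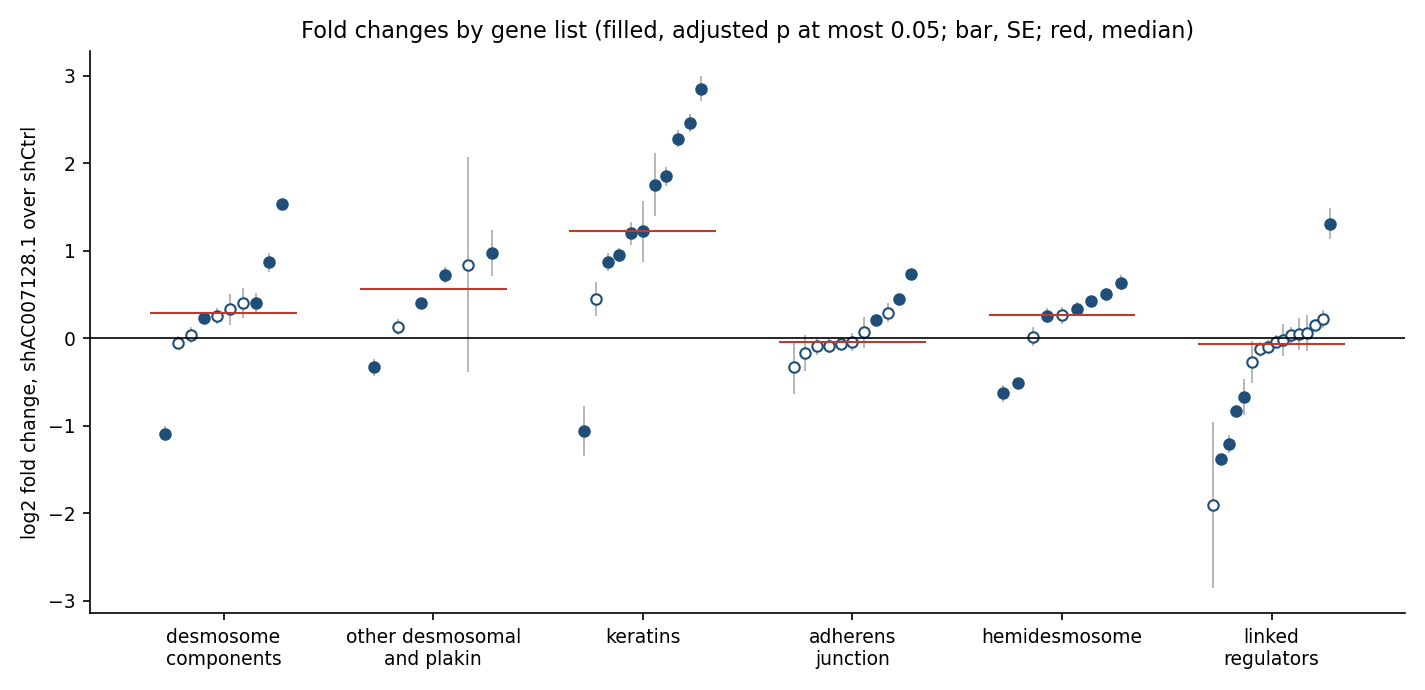
Log2 fold changes, shAC007128.1 over shCtrl, of the tested genes of 6 lists (filled points, adjusted p of at most 0.05 in edgeR; bars, SE; red lines, medians). The median is 0.29 for the desmosome components and 1.22 for the keratins, and the desmosome points run from -1.09 (DSG3) to 1.54 (PERP).

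Some annotated genes overlap the desmosome genes. DSG2-AS1 and DSP-AS1, on the opposite strand, shared 186 and 81 exonic bases with DSG2 and DSP, which was 1.96% and 0.595% of their exonic bases, and ENSG00000274976, on the same strand, shared 424 bases (4.12%) with PKP2. None of these 3 had more than 177 counts in any library. DSCAS overlaps DSC2 and RPL35AP27 overlaps PKP2 without sharing exonic bases. The use of strand in the counting is not given in the sources used here, so reads of a gene and its antisense partner cannot be told apart.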

How the data were processed

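In the deposited table, the authors gave estimated counts for each Ensembl gene as whole numbers without normalization. Per the study's methods, rRNA, adapter and low-quality reads were removed from paired-end TruSeq reads before mapping to hg38. The submitters' processing notes name CASAVA 1.8 and TopHat2 2.0.6 and list mm10 beside GRCh38. The study's methods name a different TopHat version. The counting program and its use of strand are not given in the sources used here. Low counts pile up at multiples of 4.

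Gene models came from GENCODE v44 on hg38, which held 60357 of the 67140 identifiers (89.9%). Genes passing filterByExpr were TMM-scaled and tested in R 4.3.3 with edgeR 4.0.16 (glmQLFit, glmQLFTest), with Benjamini-Hochberg adjustment over all 19254. A call took an adjusted p of at most 0.05 and a fold change of at least 2. SE is the log2 fold change over the root of F. CPM and TPM were computed here from the counts. Paralog ratios took an exact permutation test. The steps were tested on simulated data, where a first pass limit failed and was then narrowed to genes at high levels. Planted changes in genes at low levels, as AC007128.1 is, were mostly missed. The floor of 3 counts covers counting error only. It takes each count as a separate read, which the pile-up of low counts leaves uncertain, so the true limit may be higher.

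The members and gene lists were chosen with earlier results of these data known. Named genes were the members, AC007128.1, up to 4 genes of smallest p per list among those past the adjusted p, list genes under the filter, protein-coding genes of the cadherin cluster and genes overlapping a member. A gene that this rule names is not reported here.

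Alternatives were DESeq2 1.42.0, limma-voom (limma 3.58.1), other scalings and filters, no fold limit, a replicate block, counts divided by 4, thinning, other lengths and leaving out each library. A correction for GC content, without and with the block, was chosen after seeing the data.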

Additional observations from a re-analysis of the deposited data

How the results depend on the processing

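PERP was called higher and DSG3 lower under every alternative fit, with log2 fold changes of 1.37 to 1.56 and -1.20 to -1.03, and DSC2 (0.66 to 0.96) passed the adjusted p in all of them. With no fold limit 4041 genes were higher and 3820 lower, 4 desmosome genes among the higher. DSC3 turned negative with library size only (-0.038), with no filter on low counts (-0.0069), with GC content correction and with the replicate block plus that correction (both -0.17). DSP did not pass the adjusted p with no filter (0.19, adjusted p = 0.0857), a setting that moved the median log2 fold change of all genes from -0.02 to -0.15. JUP passed with GC content correction, alone or with the block (both 0.59), and PKP1 with both (0.47, adjusted p = 0.0304). With longest transcripts, DSG3 made up 32.1% of the DSG2 and DSG3 transcripts in shCtrl and 15.7% in shAC007128.1, and PKP1, PKP2 and PKP3 made up 12.4%, 45.1% and 42.5% and 13.6%, 37.7% and 48.7% of the plakophilin transcripts. The cause of these changes was not tested.

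Leaving out each library in turn gave ranges of 0.14 to 0.31 for DSG2, -0.052 to 0.098 for DSC3, 0.21 to 0.24 for DSP, 0.22 to 0.54 for JUP, 0.20 to 0.58 for PKP1, 0.35 to 0.50 for PKP3 and -0.15 to 0.17 for the log2 ratio of PKP1 to PKP3. That ratio was 0.17 without shCtrl replicate 3 and 0.05 without shAC007128.1 replicate 2.

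No pairing of the samples by replicate number was seen in the counts. The deviations of same-numbered libraries correlated at 0.03, -0.03 and -0.03, and 2 of 6 libraries correlated best with their own number. These values do not show how the samples were prepared. With the replicate block 977 genes were called higher and 1692 lower, against 1073 and 1945 without it, and adding the block to the fit without GC content correction moved no desmosome gene across the adjusted p of 0.05. Added to the GC-corrected fit, it moved DSC3 from an adjusted p of 0.0318 to 0.0729 and PKP1 from 0.0922 to 0.0304. Depth limited what could be said of AC007128.1, DSC1, DSG1 and DSG4, whose counts were low.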
